A study of Mus musculus with 516 samples.

Results

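The cytosolic ribosomal protein genes were described in single cells from dorsal root ganglia of mice, which hold the cell bodies of the body's sensory neurons. They were chosen by symbol alone: Rps or Rpl with a number and the short suffixes of paralogues, the P stalk genes Rplp0, Rplp1 and Rplp2, and Rpsa. The rule found 80 of the 11251 genes of the table, of which 33 belong to the small (40S) subunit, 44 to the large (60S) subunit and 3 to the P stalk. In the annotation used here 79 were protein coding, and the row named Rps4y2 carried an older symbol of Rps4l, a transcribed processed pseudogene related to Rps4x.

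The study set cells of C57BL/6 mice, the common laboratory strain, against cells of CAST/Ei mice, an inbred strain derived from wild Mus musculus castaneus. In each strain the naive group was captured straight after dissociation, with no treatment. The group labelled injured, called cultured here, was kept on uncoated plastic for 48 h, an in vitro axotomy, because dissociation cuts the axons. It received ara-C, which kills dividing cells, at 24 h, and was lifted with trypsin before capture. All 4 groups had passed through a mesh, a Percoll gradient and a Fluidigm C1 chip of the large format, with the chip's own lysis, reverse transcription and amplification. No label gives an age, a sex, an animal, a culture or a capture run, so each group counted as 1 sample, and no test between groups was possible. Intervals in the text are exact 95% intervals of read counts or cell counts, and cover counting error only.

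The 516 cells had 13932 to 2978345 reads each: 243 came from C57BL/6 and 273 from CAST/Ei, and 306 were naive and 210 cultured, of which 99 were CAST/Ei. Comparisons used the cells classed as neuron-like from a fixed marker list, which were 74 naive and 34 cultured cells of C57BL/6 and, of 219 in CAST/Ei, 66 cultured and the rest naive. The clusters behind that class differed. Naive C57BL/6 neuron-like cells lay mostly in clusters 2, 3 and 4 (16, 23 and 26 cells), naive CAST/Ei ones in clusters 3, 7, 8 and 14 (28, 25, 57 and 31 cells), and cultured ones in clusters 10 and 13. Naive clusters 1 (31 C57BL/6 and 3 CAST/Ei cells) and 9 (11 C57BL/6 cells) had the neuron list highest. They were left unnamed because 1 marker of another class, Rgs5 and S100b, stood among their leading genes and no neuron marker. The clusters named neuron-like had no neuron marker there either. Cluster 1 had Th among its leading genes, as did cluster 7 (2 C57BL/6 and 25 CAST/Ei cells), which counted as neuron-like. Cluster 5, led by endothelial and interferon-induced genes, was also left unnamed. A difference within neuron-like cells therefore cannot be told apart from a difference in which neurons were captured.

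The ribosome is built in the nucleolus from ribosomal RNA and one copy each of most ribosomal proteins, which cells make in matched amounts. Mammalian ribosomal protein mRNAs begin with a terminal oligopyrimidine tract, a C followed by a run of C and T, through which mTORC1 signalling and the protein Larp1 control their translation. Mammalian genomes also hold many processed pseudogenes of these genes, intronless copies made from their mRNAs, so a short read from a ribosomal protein mRNA can match several places. In injured sensory neurons, ribosomal protein mRNAs are also known to be carried into axons.

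Both features can be seen in the sequence. In the RefSeq promoter table (GRCm38.p6, the build of mm10), 60 of the 80 members had an entry. A C followed by 4 bases that are each C or T stood exactly at the annotated start, on the gene's strand, in 12 of these 60 (20%) and in 202 of the 8415 genes of the table with an entry (2.4%). Lying wholly within the 10 bases before and 15 bases after the start, and with 6 bases of C or T after the first C, such a run was found in 41.7% of the members and 11.3% of all genes of the table. Only the first entry of each gene was used. The reverse strand was not searched, since the tract is a property of the mRNA. The following 30 bases, 15 on each side of the start, are shown because these members include both high and low culture responses. Capitals mark the run of C and T.
Rps6, chr4:86857353-86857382, minus strand: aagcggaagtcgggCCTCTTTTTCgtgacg
Rpl14, chr9:120571502-120571531, plus strand: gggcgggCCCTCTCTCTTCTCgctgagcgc
Rpl15, chr14:18270972-18271001, minus strand: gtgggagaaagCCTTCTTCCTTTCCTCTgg
Rpl35, chr2:39005117-39005146, minus strand: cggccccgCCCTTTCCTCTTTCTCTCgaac
Rplp2, chr7:141447636-141447665, plus strand: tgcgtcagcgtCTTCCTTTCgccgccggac
Rps27, chr3:90213634-90213663, minus strand: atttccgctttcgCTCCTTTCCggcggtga
Rpl28, chr7:4792950-4792979, plus strand: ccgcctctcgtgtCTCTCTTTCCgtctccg

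The copies were counted against GENCODE M21 transcripts of the same build. A copy was another annotated gene that matched at least 50% of the member's coding sequence at 90% identity or more. There were 1043 such copies for the 80 members, 1003 of them annotated pseudogenes, with a median of 9 a member. Rpl8 was without a copy. Rpl7a had 85, Rpl21 79, Rpl29 64, Rpl17 55, Rps2 49 and Rpl23a 34. Of all 50-base stretches of the coding sequence, a median of 92.3% over the members was found letter for letter in the transcript of another gene, and 30 members shared every such stretch. These 4 stretches, each within 1 exon, are shown because the 4 members had many exact copies and stood lowest in CAST/Ei or close to it. The whole run is shared, so no base is set in capitals.
Rpl7a, chr2:26912379-26912428, plus strand, exon 5, in 45 other genes: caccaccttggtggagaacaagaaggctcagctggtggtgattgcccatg
Rpl21, chr5:146834994-146835043, plus strand, exon 4, in 33 other genes: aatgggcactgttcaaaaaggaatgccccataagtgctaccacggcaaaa
Rps2, chr17:24721246-24721295, plus strand, exon 4, in 33 other genes: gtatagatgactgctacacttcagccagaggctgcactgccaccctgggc
Rpl29, chr9:106431177-106431226, plus strand, exon 4, in 32 other genes: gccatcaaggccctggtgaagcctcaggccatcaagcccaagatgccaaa

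Ribosomal protein genes took a larger share of the reads in cultured than in naive neuron-like cells of both strains. The 80 genes together held 0.380% of all reads in naive C57BL/6 neuron-like cells (95% interval 0.378 to 0.381) and 0.718% in cultured ones (0.714 to 0.722). They held 0.315% in naive CAST/Ei neuron-like cells (0.314 to 0.315) and 0.530% in cultured ones (0.529 to 0.532). Cultured exceeded naive in both strains, and C57BL/6 exceeded CAST/Ei in both states. Cell by cell, naive C57BL/6 shares ran from 0.136% through a median of 0.345% to 0.739%, and cultured ones from 0.358% through 0.606% to 1.72%. Naive CAST/Ei shares ran from 0.125% through 0.308% to 0.831%, and cultured ones from 0.165% through 0.534% to 1.37%. The ranges overlapped in both strains, although the upper quartile of naive cells (0.413% and 0.393%) lay below the lower quartile of cultured cells (0.499% and 0.402%).

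**Figure D1:**
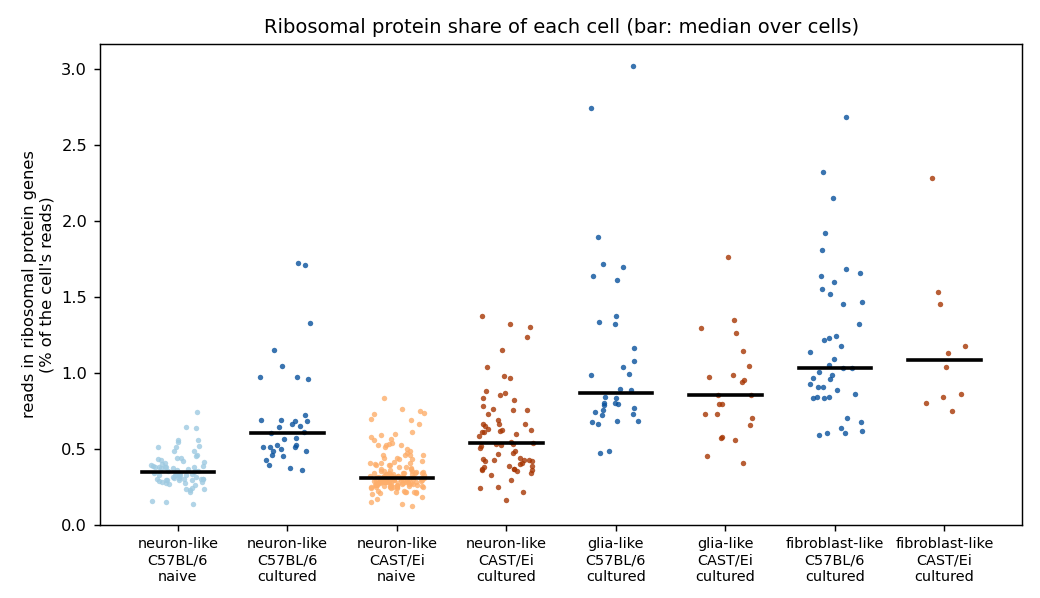
Share of each cell's reads in the 80 ribosomal protein genes (y axis, percent), by cell class and group (x axis), with 1 point a cell and a bar at the median. Cultured neuron-like cells have medians of 0.606% (C57BL/6) and 0.534% (CAST/Ei) against 0.345% and 0.308% in naive ones, and cultured glia-like and fibroblast-like cells lie higher.

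Non-neuronal cells in culture had still larger shares. The median cell held 0.865% in C57BL/6 and 0.853% in CAST/Ei among cells like satellite and Schwann glia (34 and 23 cells), and 1.03% and 1.08% among fibroblast-like cells (43 and 10 cells), whose cluster was led by Spp1, Fn1 and the chemokine genes Ccl2, Ccl7 and Ccl11. The unnamed naive cluster 5 had 0.546% in 16 C57BL/6 cells and 0.689% in 18 CAST/Ei cells. Among naive neuron-like clusters of at least 10 cells of a group, medians ran from 0.270% in cluster 7, led by Th and Penk among others, to 0.378% in cluster 3, led by Tac1 and Calca, genes of peptidergic nociceptors. Cultured neuron-like cells of cluster 10, led by the injury genes Gal, Sprr1a and Sox11, had medians of 0.604% in 23 C57BL/6 and 0.603% in 36 CAST/Ei cells. In cluster 13, whose cells had fewer genes with reads (medians of 4750.5 and 4649 against 9017 and 9021 in cluster 10), the medians were 0.627% in 10 C57BL/6 cells and 0.426% in 29 CAST/Ei cells. The strain medians of cultured cells thus lay far apart in cluster 13 and next to each other in cluster 10.

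Markers of other cells moved with culture in the same neuron-like cells. The summed level of the 16 glia markers was 2648.1 CPM (the usual scaling of a gene's reads to the group's total) in naive and 3865.3 in cultured C57BL/6 cells, and 2730.0 and 3681.3 in CAST/Ei cells. The 9 fibroblast markers of the table summed to 481.4 and 818.4 CPM in C57BL/6 and to 484.3 and 1756.8 in CAST/Ei, no glia or fibroblast marker being at 0 in any group. The 13 endothelial and mural markers of the table went the other way, from 549.6 to 304.6 and from 354.9 to 65.1 CPM, as did the 20 neuron markers, from 17999.1 to 14294.5 and from 19117.3 to 13697.3. The 1 macrophage marker in the table had 0.5 and 6.0 CPM in C57BL/6 and 3.0 and 19.7 in CAST/Ei, and no marker of the other immune and erythroid lists is a row of the table used here. In neuron-like cells at or under their group's median of the summed glia and fibroblast markers, the shares were 0.358% naive and 0.601% cultured in C57BL/6, and 0.318% and 0.455% in CAST/Ei. Depth also differed between cells: the rank correlation of a cell's share with its reads, which enter both quantities, was 0.33 and 0.06 for naive and for cultured cells of C57BL/6 and -0.40 and -0.42 for those of CAST/Ei. The part of depth and of these markers in the shares was not tested.

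The levels of single members covered a wide range although the proteins are used in equal numbers. In naive C57BL/6 neuron-like cells Rps3, a 40S protein that also acts in DNA repair, at 297.3 CPM, and Rpl41, which encodes one of the shortest known proteins, at 289.6, were among the highest. At the other end 38 of the 80 members stayed under 50 CPM in all 4 groups, from 1.05 CPM (Rps27 in cultured C57BL/6 cells, 19 reads) to 49.2 CPM (Rpl36 in the same cells).

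Level per length was lower in members that share more of their sequence. Over the 80 members, CPM per kb of transcript had rank correlations of -0.44 (naive C57BL/6), -0.40 (cultured C57BL/6), -0.36 (naive CAST/Ei) and -0.40 (cultured CAST/Ei) with the share of coding stretches found in another gene, the points sharing all their libraries. With the number of copies the rank correlations were -0.28, -0.29, -0.40 and -0.37 in the same order. The 9 members with 0 to 2 copies (Rpl4, Rpl8, Rpl14, Rplp2, Rps3, Rps4y2 and Rps9 among them) had a median of 125.6 CPM per kb in naive C57BL/6 cells, against 24.9 for 33 members with 3 to 9 copies, 30.6 for 32 members with 10 to 27 and 17.98 for 6 members with 34 to 85. These 9 of 80 genes held 35.4% of all ribosomal protein reads in naive C57BL/6 cells, 33.8% in cultured ones, 36.8% in naive CAST/Ei cells and 35.9% in cultured ones. An exception was Rpl41, with all of its coding stretches shared and the highest level per length in the naive groups, 662.8 and 798.9 CPM per kb. Bowtie2, which the processing notes name, does not align across introns, and 35 members had no 50-base coding stretch that lay in 1 exon and in no other gene. That count covers the coding sequence only. Over the whole transcript, the share of 50-base stretches in 1 exon and in no other gene was 71.1% for Rpl21, 67.2% for Rpl15 and 34.5% for Rpl41. For Rpl10 it was 1.87% and for Rps27 0%. These shares and the levels per kb depend on the 1 annotated transcript used for each gene. That transcript had 1856 bases for Rpl21, of which 480 were coding, and 1922 for Rpl15, of which 612 were. A level given here is that of the reads that the authors' counting kept, and the part of shared reads in the low levels was not tested.

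**Figure D2:**
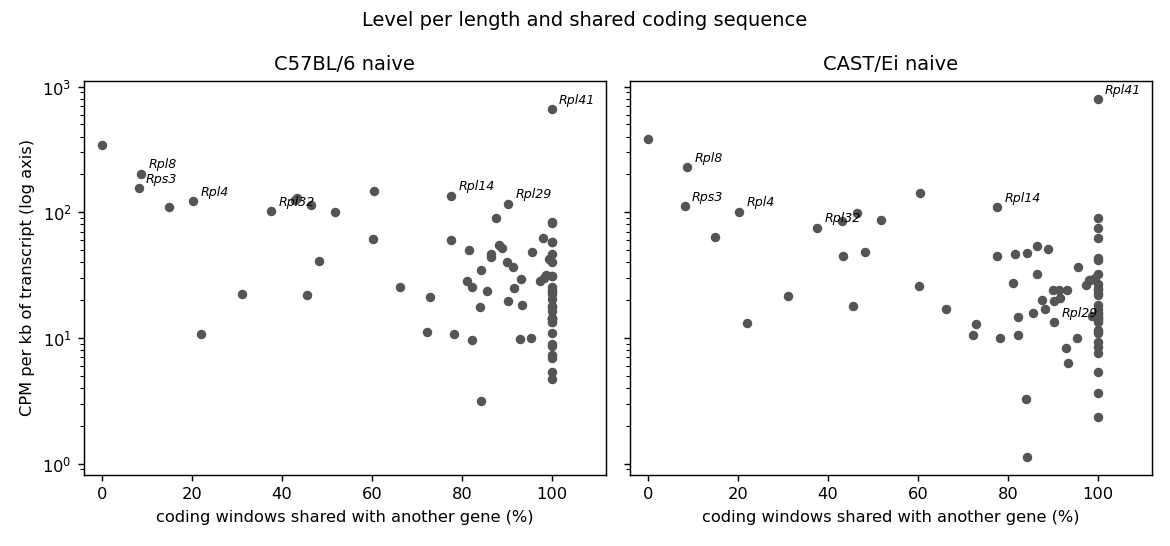
CPM per kb of transcript (y axis, log scale) against the percent of 50-base coding stretches found in another gene (x axis), with 1 point a member, in naive C57BL/6 and naive CAST/Ei neuron-like cells. Rpl8, with 8.7% shared, lies near the top, and members at 100% spread downward, except Rpl41.

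Culture in C57BL/6 cells went with higher levels of most members. Of the 80 members, 72 were higher in cultured than in naive neuron-like cells by any amount, against 46.8% of all genes of the table. Their median log2 ratio of CPM + 1 was 0.89, against -0.10 over all genes. At least 2-fold higher were 33 members (41.3%), against 21.5% of all genes, and 3 were at least 2-fold lower, Rps4y2, Rps27 and Rpl34, against 22.5% of all genes. By role the medians were 0.92 for 40S genes (13 of 33 at least 2-fold higher), 0.76 for 60S genes (17 of 44) and 1.27 for the P stalk (3 of 3). These ratios rest on the 34 cultured cells: leaving out each cell of the comparison in turn gave medians of 0.71 to 0.95 and 27 to 35 members at least 2-fold higher. With 10 CPM added in place of 1 the number was 17, against 14.3% of all genes, and over all cells of the groups, other classes included, it was 59, against 23% of all genes. For 19 of the 33 members, leaving out the 1 cell with most of the member's reads brought the ratio under 2-fold, and 14 stayed above.

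Culture in CAST/Ei cells showed the same direction. Again 72 of 80 members were higher, against 51.5% of all genes, and the median log2 ratio was 0.73, against 0.04 over all genes. The ratio was larger in C57BL/6 than in CAST/Ei for 44 of the 80 members, and leaving out each CAST/Ei cell in turn gave medians of 0.69 to 0.76, inside the range for C57BL/6 or just below it. At least 2-fold higher were 18 members (22.5%), which is close to the 23.6% of all genes, and 2 were at least 2-fold lower, Rps4y2 and Rps27, against 21.8% of all genes. Of the 18 members, 8 came under 2-fold without the 1 cell with most of the member's reads, and 10 stayed. The medians were 0.84 for 40S genes, 0.67 for 60S genes and 1.07 for the P stalk. The number at least 2-fold higher was 6 with 10 CPM added (against 15.9% of all genes), 31 over all cells (against 22.5%) and 11 in the cells low in glia and fibroblast markers (against 22.9%), where the median was 0.50. In C57BL/6 cells low in these markers the median was 0.54, with 25 members at least 2-fold higher, against 21.5% of all genes.

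The members ranked alike in both strains. The responses share no cells between strains, and across the 80 members they had a rank correlation of 0.61 and a Pearson correlation of 0.75, the members sharing all libraries and the scaling. Higher in both were 68 members, against 35.4% of all genes, lower in both were 4 (Rps4y2, Rps27, Rpl34 and Rpl27a), against 37.1%, and in opposite directions 8, against 27.4%. At least 2-fold higher in both were 15 members, against 13% of all genes. They were Rps15, Rps16, Rps24, Rps27l and Rpsa of the 40S subunit, Rpl5, Rpl8, Rpl13, Rpl13a, Rpl23, Rpl32, Rpl35 and Rpl39 of the 60S subunit, and Rplp0 and Rplp2 of the P stalk. Without the 1 cell with most of the member's reads in any group, 6 of the 15 stayed at 2-fold in both strains: Rpl13a, Rpl35, Rpl39, Rplp0, Rps24 and Rps27l. Both members at least 2-fold lower in both were 40S rows, against 12.8% of all genes, and without such a cell 1 of them, Rps27, stayed at 2-fold in both.

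**Figure D3:**
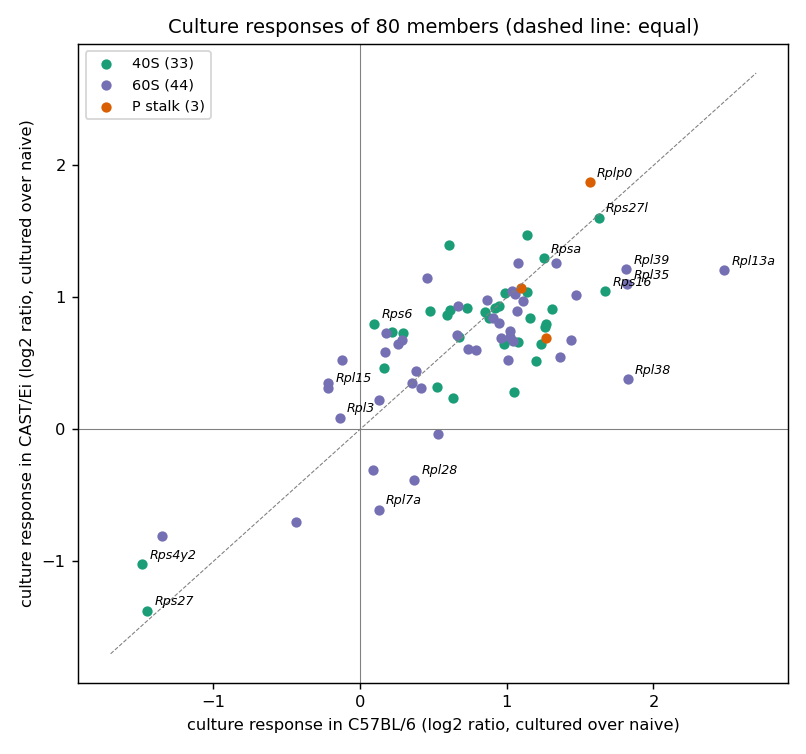
Log2 ratio of cultured over naive neuron-like cells in CAST/Ei (y axis) against that in C57BL/6 (x axis), with 1 point a member, coloured by subunit. Most points lie in the upper right part, where both ratios are positive (68 of 80), with Rps4y2 and Rps27 at the lower left and Rpl13a far to the right of the dashed line of equal response.

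Among the 40S genes, Rps27l stood out in both strains. It encodes a paralogue of Rps27 and is a known target of p53 (chr9:66946086-66949516, plus strand, 4 exons). Its level was 20.6 CPM in naive and 65.6 in cultured C57BL/6 cells, and 24.2 and 75.6 in CAST/Ei cells, log2 ratios of 1.63 and 1.60. Over cells the median went from 18.5 to 66.9 CPM in C57BL/6 (highest cell 53.9 naive and 289.7 cultured) and from 22.8 to 73.7 in CAST/Ei (highest cell 65.03 and 268.0). The medians of cultured cells thus lay above the highest naive cell in both strains. In cultured glia-like cells it was at 129.6 and 137.7 CPM and in fibroblast-like cells at 157.1 and 198.3.

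Rps27 itself (chr3:90212522-90213651, minus strand, 4 exons), a zinc-finger protein of the 40S subunit, went the other way at a very low level. It had 4.601 CPM in naive and 1.052 in cultured C57BL/6 cells, and 5.489 and 1.501 in CAST/Ei cells, log2 ratios of -1.45 and -1.38. With each cell thinned to 100000 reads, it had a read in 13 of 70 naive (18.6%, exact 95% interval 10.3 to 29.7) and 2 of 30 cultured C57BL/6 cells (6.67%, 0.82 to 22.1). In CAST/Ei it had a read in 45 naive cells (30.6%, 23.3 to 38.7) and in 9 of 65 cultured cells (13.8%, 6.53 to 24.7). The intervals overlapped in both strains. Before thinning the shares were 48.6% and 29.4%, and 70.6% and 25.8%. All coding stretches of Rps27 occur in other genes, while 48.3% of those of Rps27l do.

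Rps16 and Rpsa were also at least 2-fold higher in both strains. Rps16 had 19.8 and 65.2 CPM in naive and cultured C57BL/6 cells (log2 ratio 1.67) and 15.9 and 33.9 in CAST/Ei cells (1.05, and 0.99 without 1 cultured cell). Rpsa, a 40S protein also known as the laminin receptor, had 61.5 and 147.7 CPM (1.25, and 0.93 without 1 cultured cell) and 29.2 and 73.04 CPM (1.30). Rps6, the 40S protein that S6 kinase phosphorylates, was among the lowest ratios in C57BL/6, with 73.2 and 78.4 CPM (0.10), and had 28.3 and 50.1 CPM in CAST/Ei (0.80). Rps4x, on the X chromosome, had 39.2 and 59.7 CPM (0.60) and 23.5 and 43.5 CPM (0.86).

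Among members of at least 50 CPM, the row with the lowest ratio in both strains was Rps4y2, that is Rps4l (chr6:148354656-148355598, plus strand, 1 exon). It had 104.4 CPM in naive (101.9 to 107.1) and 36.7 in cultured C57BL/6 neuron-like cells, and 60.4 and 29.2 in CAST/Ei cells, log2 ratios of -1.48 and -1.02. The cells varied widely: naive C57BL/6 cells ran from 0 through a median of 44.5 to 685.1 CPM and cultured ones from 0 through 27.6 to 1107.2, while CAST/Ei cells had medians of 32.6 naive and 0.71 cultured. With each cell weighted equally the C57BL/6 ratio was 0.03, so its direction in that strain depends on the weighting. Without the cultured CAST/Ei cell with most of its reads, the CAST/Ei ratio was -2.0, and without the naive one with most of them it was -0.96, under 2-fold. In cultured C57BL/6 cells it had 56.1 CPM in fibroblast-like and 13.8 in glia-like cells, and in CAST/Ei 2.73 and 8.73. It differs from Rps4x at many positions: over 783 aligned bases the identity was 79.9%. The pair of 60-base stretches below, within 1 exon each, has 19 mismatches, which the capitals mark.
Rps4x, chrX:102186413-102186472, minus strand, exon 5: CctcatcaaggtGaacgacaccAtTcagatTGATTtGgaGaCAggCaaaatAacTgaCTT
Rps4l, chr6:148355165-148355224, plus strand, exon 1: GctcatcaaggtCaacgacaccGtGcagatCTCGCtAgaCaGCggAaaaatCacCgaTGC

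Among the 60S genes the highest ratio in C57BL/6 was that of Rpl13a (chr7:45125558-45128761, minus strand, 8 exons), a protein that can also leave the ribosome to repress translation of inflammatory mRNAs. It had 29.6 CPM in naive and 169.9 in cultured C57BL/6 cells (log2 ratio 2.48), and 27.8 and 65.4 in CAST/Ei cells (1.21). Of the cultured C57BL/6 cells, the lowest had 0, the median cell 42.3 and the highest 1688.6 CPM. Without the cell that gave most of its reads, the ratio was 1.43. Rpl38 was likewise at 1.82 with all cells and at 0.80 without 1 cell, and Rpl8 at 1.47 and 0.76.

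Among 60S genes of at least 50 CPM, Rpl35 and Rpl39, both at the exit of the peptide tunnel, followed. Rpl35 had 23.6 and 85.6 CPM in C57BL/6 (1.82) and 19.5 and 43.03 in CAST/Ei (1.10). Rpl39 had 28.3 and 102.3 CPM (1.82) and 33.1 and 78.1 CPM (1.22). Rpl5, which with Rpl11 binds the 5S RNA and can bind Mdm2, had 29.1 and 75.1 CPM (1.34, and 0.94 without 1 cultured cell) and 23.4 and 57.6 CPM (1.26).

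At the other end of the 60S genes of at least 50 CPM were several whose C57BL/6 levels were close to the naive ones. Rpl3, at the peptidyl transferase centre, had 65.8 and 59.6 CPM in C57BL/6 (-0.14) and 49.2 and 52.4 in CAST/Ei (0.09). Rpl14 had 136.6 and 149.8 CPM (0.13) and 110.4 and 128.9 CPM (0.22). Rpl15 had 111.3 and 95.7 CPM (-0.22) and 143.3 and 178.5 CPM (0.32). Rpl4, which lines the tunnel, had 189.1 and 247.1 CPM (0.38) and 155.5 and 212.0 CPM (0.44). Rpl10, a protein joined late in 60S assembly, had 46.2 and 55.5 CPM (0.26) and 49.5 and 78.03 CPM (0.65).

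The paralogue pairs of the large subunit differed in how alike their members were. Rpl22 had 45.9 and 73.6 CPM in C57BL/6 (0.67) and 44.3 and 85.5 in CAST/Ei (0.93), and Rpl22l1, its paralogue, 19.1 and 35.5 CPM (0.86) and 26.2 and 52.6 CPM (0.98). Rpl7 had 70.3 and 153.2 CPM (1.11) and 52.5 and 104.3 CPM (0.98), while Rpl7l1 had 27.8 and 35.7 CPM (0.35) and 34.5 and 44.4 CPM (0.35). Rpl36al had 43.3 and 68.98 CPM (0.66) and 47.3 and 78.1 CPM (0.71), and Rpl36a, which it resembles closely, 8.49 and 7.70 CPM (-0.13) and 8.84 and 13.2 CPM (0.53, and -0.16 without 1 cultured cell). Both Rpl36a and Rpl36al share every coding stretch with another gene. The paralogues Rpl3l, Rpl10l and Rpl39l are no rows of the table used here.

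The P stalk genes were all higher after culture. The stalk, made of Rplp0 with pairs of Rplp1 and Rplp2, recruits the elongation factors to the 60S subunit. Rplp0 (chr5:115559467-115563727, plus strand, 7 exons) had 82.9 CPM in naive and 247.4 in cultured C57BL/6 cells (1.57), and 34.9 and 130.6 in CAST/Ei cells, the highest ratio of the members of at least 50 CPM there (1.87). Its median over cells went from 72.6 to 229.3 CPM in C57BL/6 and from 32.9 to 129.4 in CAST/Ei, with highest naive cells at 242.6 and 160.5. Rplp1 had 73.5 and 178.5 CPM (1.27) and 71.3 and 115.9 CPM (0.69), and Rplp2 24.6 and 53.6 CPM (1.09, and 0.56 without 1 cultured cell) and 16.3 and 35.4 CPM (1.07).

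Members with the pyrimidine run at the annotated start were found at both ends of the responses. Of the 12, Rpl35 had a log2 ratio of 1.82 in C57BL/6 and Rps27 of -1.45, with Rpl38 (1.82), Rplp2 (1.09), Rps18 (0.61), Rps21 (0.53), Rpl28 (0.37), Rps15a (0.29), Rps10 (0.22), Rpl14 (0.13), Rps6 (0.10) and Rpl15 (-0.22) between them. In CAST/Ei they ran from -1.38 (Rps27) to 1.10 (Rpl35).

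**Figure D4:**
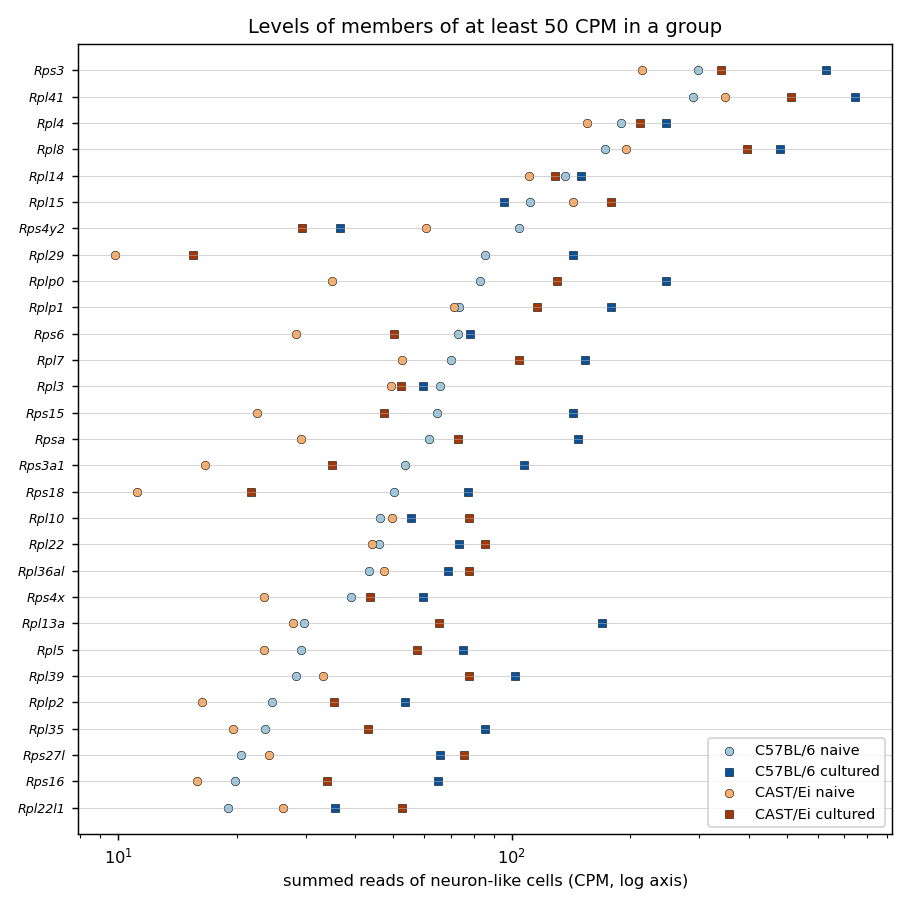
CPM of reads summed over neuron-like cells (x axis, log scale) for the members of at least 50 CPM in a group that are described in the text (y axis), with 1 symbol a group: circles are naive, squares cultured, blue C57BL/6 and orange to brown CAST/Ei. Squares lie to the right of the circles for most members, and the CAST/Ei symbols of Rpl29, Rps18, Rps3a1 and Rps15 lie far to the left.

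Between naive neuron-like cells, most members were lower in CAST/Ei. The median log2 ratio of CAST/Ei over C57BL/6 was -0.20 over the members and 0.10 over all genes, and 22 of 80 members were higher, against 57.7% of all genes. At least 2-fold lower were 13 members (16.3%), against 6.18% of all genes, and 1 was at least 2-fold higher (Rpl28), against 8.90%. By role the medians were -0.26 for 40S genes (7 of 33 at least 2-fold lower), -0.10 for 60S genes (5 of 44) and -0.56 for the P stalk (1 of 3, Rplp0). mm10 is the genome of C57BL/6, and the part of CAST/Ei sequence differences in these counts was not tested.

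In cultured neuron-like cells the median was -0.43, against 0.19 over all genes. Of the 80 members 21 were higher, against 57.8% of all genes. At least 2-fold lower were 12 members (15%), against 13% of all genes, a share near that of all genes, and none was at least 2-fold higher, against 21.6%. With each cell weighted equally the medians were -0.08 naive and -0.20 cultured, with 9 and 8 members at least 2-fold lower (5.3% and 10% of all genes), and 2 members were then at least 2-fold higher in cultured cells. Of the 12 members, 5 came under 2-fold without the 1 cell with most of the member's reads, and 7 stayed. In cultured cells low in glia and fibroblast markers 19 members were at least 2-fold lower, against 16.7% of all genes, and 3 at least 2-fold higher, against 32%.

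Naive and cultured cells of the strains are separate cells, and 9 members were at least 2-fold lower in CAST/Ei in both, against 2.34% of all genes. They were Rpl7a, Rpl21, Rpl29, Rpl36, Rps2, Rps3a1, Rps15, Rps18 and Rpsa. For 3 of them, Rpl36, Rpsa and Rps15, leaving out 1 cell brought a ratio under 2-fold, and 6 stayed below it. Rpl36 and Rpsa in naive cells were at -1.05 each with all cells and at -0.96 and -0.95 without 1 C57BL/6 cell. Rps15 in cultured cells was at -1.57 and at -0.84 without 1 C57BL/6 cell, Rpsa at -1.01 and -0.68.

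Rpl29 (chr9:106429454-106431568, plus strand, 4 exons), a 60S protein that also binds heparin, differed most. It had 85.6 CPM in naive C57BL/6 cells (83.3 to 87.99) and 9.81 in naive CAST/Ei cells, and 143.1 and 15.5 CPM in cultured cells, log2 ratios of -3.0 and -3.13. The naive C57BL/6 cells ran from 3.61 through a median of 75.1 to 263.8 CPM, and the naive CAST/Ei cells from 0 through 9.20 to 61.3. The highest CAST/Ei cell thus lay under the median C57BL/6 cell, though the ranges overlapped. Within a strain its culture response was like that of other members, with log2 ratios of 0.73 and 0.61.

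Several 40S genes were also lower in CAST/Ei. Rps18, in the head of the 40S subunit, had 50.3 CPM in naive C57BL/6 and 11.2 in naive CAST/Ei cells (-2.08), and 77.3 and 21.7 CPM in cultured cells (-1.79). Rps3a1 had 53.6 and 16.6 CPM (-1.64) and 107.2 and 34.9 CPM (-1.59). Rps15 had 64.5 and 22.5 CPM (-1.48) and 143.1 and 47.4 CPM (-1.57). Rps6, given above by culture, was at -1.34 in naive and -0.64 in cultured cells. Rpl13a, of the 60S subunit, was at -0.09 in naive cells and at -1.36 in cultured cells, where it was -0.31 without the C57BL/6 cell named above.

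At the upper end were members whose levels were close in the strains or higher in CAST/Ei. In naive cells Rpl15 was at 0.36, Rpl41 at 0.27, and Rpl8 at 0.17. In cultured cells Rpl15 was at 0.89 (178.5 CPM in CAST/Ei and 95.7 in C57BL/6), Rpl22l1 at 0.56, Rpl10 at 0.48, Rpl22 at 0.21 (-0.16 without 1 CAST/Ei cell) and Rps27l at 0.20. Under 50 CPM in all groups, Rpl28 had 7.61 CPM in naive C57BL/6 and 25.4 in naive CAST/Ei cells (1.61), and 10.1 and 19.2 CPM in cultured cells (0.86).

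Several members with many copies were among the lowest in CAST/Ei. Of the 6 members with 34 to 85 copies, 4 were at least 2-fold lower in naive CAST/Ei cells, with a median log2 ratio of -1.76, and 4 in cultured cells, with a median of -2.29. The bins of 0 to 2, 3 to 9 and 10 to 27 copies had naive medians of -0.30, -0.26 and -0.07. At least 2-fold lower in naive cells were 0 of 9, 3 of 33 and 6 of 32 members, against 6.18% of all genes. In cultured cells the medians of these bins were -0.32, -0.45 and -0.33. There 0, 5 and 3 members were at least 2-fold lower, against 13% of all genes. The bins were set after the values were seen, and over all 80 members the rank correlation of the number of copies with the strain ratio was -0.09 in naive and -0.15 in cultured cells. Rpl21, beside Rpl29, had 30.3 CPM in naive C57BL/6 and 4.36 in naive CAST/Ei cells (-2.54), and 44.1 and 4.24 CPM in cultured cells (-3.11). Rps2 had 17.6 and 3.24 CPM (-2.13) and 40.5 and 6.60 CPM (-2.45), and Rpl7a 16.7 and 5.75 CPM (-1.39) and 18.3 and 3.43 CPM (-2.13). The other members of the bin were not lower by 2-fold: Rpl23a, with 34 copies, was at -0.06 and -0.34, and Rpl17, with 55, at -0.16 and 0.54. In the 43 members with no more pseudogenes than the median member, 3 were at least 2-fold lower in naive and 5 in cultured CAST/Ei cells. Both counts are near the shares of all genes, 6.18% naive and 13% cultured. The medians of these members were -0.26 and -0.45.

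**Figure D5:**
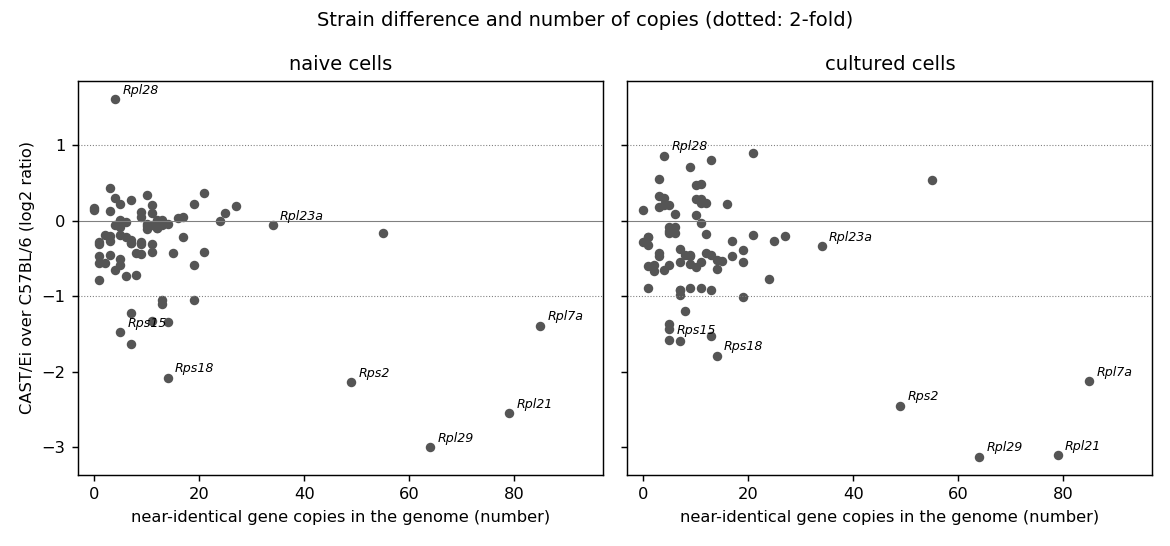
Log2 ratio of CAST/Ei over C57BL/6 (y axis) against the number of near-identical copies of the member in the genome (x axis), with 1 point a member, in naive and in cultured neuron-like cells. Dotted lines mark 2-fold differences. Rpl7a, Rpl21, Rpl29 and Rps2, with 49 to 85 copies, lie between -1.39 and -3.13, while Rpl17, unlabelled at 55 copies, lies at -0.16 and 0.54, and members with fewer copies spread around 0 and include Rps18.

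Other genes of ribosome production and use were listed by role. Their ratios were not checked by leaving out single cells. Fau, which encodes a ribosomal protein fused to a ubiquitin-like protein, was at 0.60 in C57BL/6 (34.1 to 52.3 CPM) and 0.27 in CAST/Ei (42.2 to 51.1 CPM) after culture. Of 18 other mRNAs with terminal pyrimidine tracts, 3 rose and 0 fell by 2-fold or more in C57BL/6 (21.5% and 22.5% of all genes). In CAST/Ei 6 rose and 1 fell (23.6% and 21.8% of all genes). The count that rose is thus below the share of all genes in C57BL/6 and above it in CAST/Ei. The medians of the 18 were 0.38 in C57BL/6 and 0.59 in CAST/Ei. Vim, an intermediate filament gene also high in glia and fibroblasts, was highest (2.89 and 3.51), followed by Pabpc1, the polyA-binding protein (2.22 and 2.48), while Nap1l1 (-0.44) and Cct4 (-0.41) were lowest in C57BL/6 and Eif4b (0.05) and Eif3e (0.08) in CAST/Ei.

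The 33 initiation factors had medians of 0.24 and 0.19, with 8 at least 2-fold higher and 3 lower in C57BL/6 (21.5% and 22.5% of all genes) and 10 and 2 in CAST/Ei (23.6% and 21.8% of all genes). The counts of higher genes are thus near those shares. Eif1ax (2.0) and the cap-binding protein Eif4e (1.84) were highest in C57BL/6, and Eif3b (1.92) and Eif1b (1.79) in CAST/Ei. The lowest were Eif4a2 (-1.45) and Eif2b1 (-1.05) in C57BL/6, and Eif3g (-1.0) and Eif4a2 (-0.81) in CAST/Ei. Eif4a2, a neuronally abundant helicase of the cap-binding complex, thus was among the lowest in both.

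The 82 ribosome biogenesis factors had medians of 0.06 and 0.22, with 10 at least 2-fold higher and 7 lower in C57BL/6, and 17 and 10 in CAST/Ei, each count below the share of all genes. Tcof1 (2.75) and Nhp2 (2.37) were highest and Ddx47 (-1.67) and Tsr2 (-1.65) lowest in C57BL/6. Nol9 (3.70) and Noc2l (2.08) were highest and Nop56 (-1.31) and Rrp1 (-1.03) lowest in CAST/Ei. The 14 genes of RNA polymerase I had medians of 0.07 and 0.16, with 3 higher and 3 lower at least 2-fold in each strain, near the shares of all genes (21.5% and 22.5% in C57BL/6, 23.6% and 21.8% in CAST/Ei). Among them Ubtf, the factor that binds ribosomal DNA promoters, was at 1.57 and 1.12 and Polr1c at 2.14 in CAST/Ei, while Polr1d was at -0.59 and -0.15 and Rrn3 at -0.13 and -0.12. Over all cells of the groups, the medians were 0.505 and 0.486 for the biogenesis factors and 0.501 and 0.466 for RNA polymerase I.

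The 33 genes of mTOR and MYC control had medians of -0.35 in C57BL/6 and 0.15 in CAST/Ei, with 5 and 7 at least 2-fold higher (21.5% and 23.6% of all genes) and 9 and 6 lower (22.5% and 21.8%). Eif4ebp1, the translation repressor that mTORC1 inactivates, was highest in C57BL/6 (3.41 to 81.9 CPM, 4.23) before Lamtor3 (2.13), and Max (2.28) and Mnt (2.18), partners of the MYC network, in CAST/Ei. Lowest were Mtor itself (52.2 to 12.3 CPM, -2.0) and Rragd (-1.75) in C57BL/6, and Pdcd4 (-0.53) and Tbc1d7 (-0.37) in CAST/Ei.

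The p53 list, with 10 genes in the table, had medians of 1.88 and 1.13. At least 2-fold higher were 7 and 5 genes (21.5% and 23.6% of all genes), and 1 was lower in each strain (22.5% and 21.8% of all genes). Gadd45a (3.13 and 3.30) and Zmat3 (2.47 and 1.60) were high in both, Cdkn1a, the cell cycle inhibitor, was at 2.94 in CAST/Ei, and Mdm2, the ubiquitin ligase of p53, at 1.42 in C57BL/6. Ccng1 was at 1.65 and 0.66. The 76 mitochondrial ribosomal protein genes had medians of -0.17 and -0.25, with 4 and 1 at least 2-fold higher and 5 and 5 lower, each count below the share of all genes. Mrpl30 (1.30) and Mrpl37 (1.17) were highest and Mrpl49 (-1.52) and Mrpl36 (-1.07) lowest in C57BL/6, and Mrps28 (1.08) and Mrpl10 (0.90) highest and Mrps25 (-1.7) and Mrpl49 (-1.32) lowest in CAST/Ei. The medians of these 76 genes changed sign over all cells of the groups, to 0.31 in C57BL/6 and 0.06 in CAST/Ei.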

How the data were processed

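RNA of 516 single cells was measured. The table the authors deposited holds unnormalized read counts for 11251 genes, and each column was matched to its sample by title. Per the submitters' processing notes, Bowtie2, SAMtools and the build mm10 were used, with neither roles nor versions. For the counting program and annotation, the entry is not given in the sources used here. Reads for each gene were found in at least 60 cells.

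From these counts, all cells were clustered without a filter and without a doublet caller, leaving the members out of the clustered genes (scanpy 1.11.5, Leiden resolution 1, 15 neighbours, 20 components of 2000 variable genes, 14 clusters), and clusters were named from fixed markers. For each group, the reads of its neuron-like cells were added up and scaled to CPM. Ratios are log2 of CPM + 1, and 2-fold serves as the call. Summing gives deep cells more weight, and reads without molecular identifiers are not independent molecules. Depth per cell had group medians of 651322, 535885.5, 964328 and 929374.5 reads (naive and cultured C57BL/6, naive and cultured CAST/Ei). The calculation was tested on simulated data. Copies were found with blastn 2.17.0. CPM per kb used 1 transcript a gene, the principal one of GENCODE M21.

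The members and lists were chosen with earlier results of these data known. Named in full were the 5 highest and 5 lowest members of each comparison among those of at least 50 CPM in 1 of its groups, the P stalk, Rps6, Rpsa, Rpl10 and the paralogue pairs, and of each list the 2 highest and 2 lowest of at least 50 CPM in each culture comparison. A few genes that this rule would name are not reported here. Rpl28, Rpl38 and the members with most copies were named after their values were seen. Alternatives were other pseudocounts, scaling, filters, cell sets, weights and clusters.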

Additional observations from a re-analysis of the deposited data

Results flagged for a closer look

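In 8 members the culture response had opposite signs in the strains, with a difference of log2 ratios (CAST/Ei minus C57BL/6) that was not tested, each strain being 1 sample a group. Rpl28 differed by -0.75 (0.37 in C57BL/6 and -0.38 in CAST/Ei), Rpl7a by -0.74 (0.13 and -0.61), Rpl21 by -0.56 (0.53 and -0.03) and Rpl31 by -0.40 (0.09 and -0.31). Rpl36a differed by 0.65 (-0.13 and 0.53), Rpl37 by 0.57 (-0.22 and 0.35), Rpl15 by 0.53 (-0.22 and 0.32) and Rpl3 by 0.23 (-0.14 and 0.09). All 8 are 60S genes, and none of the 16 ratios reached 2-fold. Opposite directions were found in 27.4% of all genes. Over all cells of the groups, all 44 of the 60S genes were higher after culture in C57BL/6, and 40 in CAST/Ei. Rpl3, Rpl15, Rpl36a and Rpl37 thus were not lower in C57BL/6 there, and Rpl15 was at 0.82 and 0.75. Leaving out 1 cell turned the sign of 5 of the ratios: Rpl31 in C57BL/6 to -0.04, Rpl7a in C57BL/6 to -0.05, Rpl21 in CAST/Ei to 0.03, Rpl3 in CAST/Ei to -0.16 and Rpl36a in CAST/Ei to -0.16.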

How the results depend on the processing

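No paired analysis was possible because the numbers of the cells only name them and each group is 1 sample with no test. The direction of the median of the members held in all 4 comparisons under every alternative run. With 10 CPM added, the culture medians were 0.65 (C57BL/6) and 0.56 (CAST/Ei). At least 2-fold higher were 17 and 6 members (14.3% and 15.9% of all genes) and lower 1 and 0 (11.4% and 11.3%). In naive CAST/Ei cells 8 members were lower (2.5% of all genes). Restricted to members of at least 50 CPM, 21 and 9 were higher and 1 and 1 lower after culture, and the strain comparisons had 7 (naive, median -0.43, none higher) and 6 (cultured) lower. Fewer members are counted there, and no share of all genes at that level was taken. Over all cells the culture medians were 1.21 and 0.94 with 59 and 31 higher (23% and 22.5% of all genes). The shares of reads there were 0.417% and 1.008% in naive and cultured C57BL/6 and 0.342% and 0.660% in CAST/Ei. Weighting cells equally gave shares of 0.362%, 0.709%, 0.348% and 0.60% and strain medians of -0.08 and -0.20. It gave 2 members higher in cultured CAST/Ei cells (17.3% of all genes) and 1 lower after culture in C57BL/6 (16.6%), where Rps4y2 reversed to 0.03. Among the 43 members with few pseudogenes, 20 were higher and 1 lower after culture in C57BL/6 (21.5% and 22.5% of all genes). After culture in CAST/Ei, 1 of them was lower (21.8% of all genes). Lower in CAST/Ei than in C57BL/6 were 3 in naive cells (6.18% of all genes) and 5 in cultured cells (13%). These strain counts are near the shares of all genes. Clustering with the members gave 1 member lower after culture in CAST/Ei (22.5% of all genes) and a share of 0.516% there. Median-of-ratios scaling gave -0.67 and 19 lower in cultured CAST/Ei cells, against 17.3% of all genes (13% as reported). Cells of at least 300000 reads had shares of 0.698% (cultured C57BL/6), 0.311% (naive CAST/Ei) and 0.518% (cultured CAST/Ei). Alternatives chosen after seeing the data were clusters 1 and 9 counted as neuron-like (share 0.372% in naive C57BL/6, and 1 member lower after culture in CAST/Ei) and cells low in glia and fibroblast markers (culture medians 0.54 and 0.50, 11 higher in CAST/Ei, 3 higher and 19 lower in cultured CAST/Ei than C57BL/6 cells, shares 0.358%, 0.601%, 0.318% and 0.455%). With clusters 1 and 9 counted, 21.8% of all genes were at least 2-fold lower after culture in CAST/Ei. In the cells low in these markers 22.9% were higher there, and between cultured strains 32% were higher and 16.7% lower. The cause of the changes under these alternatives was not tested. Of 668 alternative values of named members and lists, 415 stayed within counting error, 252 moved and 1 reversed. Only a member at least 2-fold apart as reported could count as reversed, so other sign changes are among the rest. Rpl15 after culture in C57BL/6, for instance, went from -0.22 to 0.82 over all cells. Leaving out single cells gave medians of 0.69 to 0.76 in CAST/Ei culture, -0.22 to -0.17 between naive and -0.46 to -0.31 between cultured cells. Depth limits members of few reads, such as Rps27 with 19 in cultured C57BL/6 cells.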

Other observations

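Of the copies of the members, 20 were rows of the table themselves, and some had levels like those of the genes they copy. Several of the 20 are protein-coding genes with other names, such as Kif15, Ciapin1 and Med21, that have an annotated transcript matching a member. Rps15a, a 40S gene with 11 copies, had 16.2 CPM in naive C57BL/6 cells, 20.04 in cultured ones, 5.86 in naive CAST/Ei cells and 10.4 in cultured ones. Its processed pseudogene Rps15a-ps6 had 16.9, 33.7, 18.7 and 41.1 CPM, and Rps15a-ps4 11.2, 20.4, 11.7 and 22.3 CPM, in the same order. Rps15a was thus lower than both pseudogene rows in both CAST/Ei groups and in cultured C57BL/6 cells. Between naive strains Rps15a was at -1.32 on the log2 scale and the pseudogene rows at 0.14 and 0.05.

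Rps23, with 22.3 CPM in naive C57BL/6 and 22.9 in naive CAST/Ei cells, was under its annotated copy Gm5148, with 139.6 and 142.9 CPM. After culture Rps23 was at 0.73 and 0.92 and Gm5148 at 0.75 and 0.80. Rps19-ps3 was at 1.04 and 1.59 after culture and Rps19 at 1.31 and 0.91, and Rpl31-ps12 at 0.78 and 0.51 where Rpl31 was at 0.09 and -0.31. Gm15421, a transcribed copy of Rpl22l1, was at 52.3 and 73.5 CPM in naive and cultured C57BL/6 cells and at 80.4 and 171.8 in CAST/Ei cells, against 19.1, 35.5, 26.2 and 52.6 for Rpl22l1.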
